A study of Homo sapiens with 11 samples.

Results

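The KAT6A/KAT6B acetyltransferase complex was followed at the transcript level through its 8 genes: the catalytic subunits KAT6A and KAT6B, the scaffolds BRPF1, BRPF3 and BRD1, and the small subunits ING5, ING4 and MEAF6. They were taken by Ensembl gene ID from a count table of 57736 gene IDs, whatever their values. All 8 were present, and all 8 were among the 13980 genes kept by a filter on low counts. RNA-seq was done on 11 libraries of HEC50B cells, a line from human endometrial cancer. The groups were the parental line with the PPP2R1A substitution R183W given WM1119 (n = 2) or vehicle (n = 3), and a CRISPR-edited line that is wild type (WT) for PPP2R1A given WM1119 (n = 3) or vehicle (n = 3). Treatment was 50 µM for 4 days. PPP2R1A encodes the scaffold of PP2A, a serine/threonine phosphatase, and WM1119 is an inhibitor of the KAT6A enzyme that also acts on KAT6B. The labels do not say whether the edited line is a single clone or whether replicates were separate cultures, so p-values measure spread that could be technical only.

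KAT6A and KAT6B are MYST family acetyltransferases that place acetyl groups on lysines of the histone H3 tail. Each works in an assembly of 4 subunits, in which a BRPF protein (BRPF1, BRPF3 or BRD1, also called BRPF2) joins the enzyme to ING5 or ING4 and to MEAF6. The scaffolds bind histones through PHD, bromodomain and PWWP modules, the ING proteins read methylated H3 through a PHD finger, and MEAF6 is a small structural subunit. BRPF proteins can also hold the related enzyme KAT7, so most of the non-catalytic subunits are shared with other complexes.

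The promoters of KAT6B and ING5 are shown because these genes gave the largest inhibitor differences among the members; they come from RefSeq (GRCh38.p14), a build other than that of the counts, and no protein sequences were used. Each window is 300 bases around an annotated start, 5′ to 3′ on the gene's strand. Capitals mark the CCAAT box (CCAAT) and the ETS core (CCGGAAG), searched on both strands. KAT6B has 3 annotated windows on the plus strand of chromosome 10, of which the first at chr10:74825005-74825304 and the third at chr10:74826350-74826649 are printed. The ING5 windows lie on the plus strand at chr2:241686770-241687069 and chr2:241701789-241702088.
KAT6B window 1: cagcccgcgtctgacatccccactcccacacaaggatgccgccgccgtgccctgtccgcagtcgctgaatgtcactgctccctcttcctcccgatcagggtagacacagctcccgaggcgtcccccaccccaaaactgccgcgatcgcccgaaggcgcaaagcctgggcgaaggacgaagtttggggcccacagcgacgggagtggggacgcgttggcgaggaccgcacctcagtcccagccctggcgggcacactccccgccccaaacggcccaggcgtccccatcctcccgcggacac
KAT6B window 3: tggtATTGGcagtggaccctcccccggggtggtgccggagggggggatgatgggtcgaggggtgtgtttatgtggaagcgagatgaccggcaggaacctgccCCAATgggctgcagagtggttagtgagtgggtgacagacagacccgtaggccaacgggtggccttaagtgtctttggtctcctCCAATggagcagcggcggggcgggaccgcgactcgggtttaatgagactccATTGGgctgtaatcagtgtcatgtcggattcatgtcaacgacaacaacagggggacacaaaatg
ING5 window 1: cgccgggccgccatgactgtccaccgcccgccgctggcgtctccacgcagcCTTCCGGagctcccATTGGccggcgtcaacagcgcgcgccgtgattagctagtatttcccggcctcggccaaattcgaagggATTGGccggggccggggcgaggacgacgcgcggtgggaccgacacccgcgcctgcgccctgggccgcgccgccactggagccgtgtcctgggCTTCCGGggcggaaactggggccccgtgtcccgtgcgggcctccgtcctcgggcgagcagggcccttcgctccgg
ING5 window 2: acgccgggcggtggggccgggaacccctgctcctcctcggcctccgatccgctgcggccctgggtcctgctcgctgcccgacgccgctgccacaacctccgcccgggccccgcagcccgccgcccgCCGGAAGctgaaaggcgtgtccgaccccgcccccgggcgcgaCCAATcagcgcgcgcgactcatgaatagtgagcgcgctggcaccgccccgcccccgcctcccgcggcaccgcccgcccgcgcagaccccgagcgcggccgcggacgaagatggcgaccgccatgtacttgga

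KAT6B window 3 held 4 matches to the CCAAT box, and windows 1 and 2 held none of the 7 motifs searched. ING5 window 1 held 2 CCAAT and 2 ETS matches, and window 2 held 1 of each. Of 35116 RefSeq windows of this length, 34.6% held a CCAAT box and 10.3% the ETS core. The other motifs searched were AP-1 (TGANTCA), TEAD (GGAATG), E-box (CACGTG), NRF1 and the TATA box (TATAAA), which no KAT6B or ING5 window held. No motif match overlapped another in these windows. A match is a description of the letters only, and the search was added after the expression values had been seen.

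Library totals ran from 2609922 to 6065149 counts, the lowest being WT WM1119 library 3. That library stood apart from the others, at -78.2 on the second principal component, where the other libraries lay between -26.6 and 35.8. Split into 4 equal classes by GC content, genes of the highest class lay in it at a median log2 of 0.26 over the mean of the other 2 libraries of its group, and genes of the lowest class at -0.12. PPP2R1A itself, whose substitution the counts cannot show, had 26.9 to 33.1 CPM in R183W WM1119, 31.0 to 36.5 in R183W vehicle, 23.9 to 30.3 in WT WM1119 and 20.1 to 25.0 in WT vehicle libraries. Its log2 difference, R183W less WT, was 0.56 with vehicle (adjusted p = 0.0463 by edgeR) and 0.11 with WM1119 (adjusted p = 0.594). The vehicle difference passed 0.05, as 13% of all genes tested did, but not in 11 of 18 alternative fits. CPM are counts scaled to a common library total with TMM factors. The epithelial markers KRT18, KRT8 and EPCAM and the Müllerian marker PAX8 were present in every library, whereas CDH1, KRT19, SOX17 and PGR were at or near 0. Fibroblast markers COL3A1 and DCN were at 0 throughout, leukocyte PTPRC and CD3E were at or near 0 with CD68 at 2.57 to 10.9 CPM, and the 4 endothelial markers in the table summed to at most 0.856 CPM. The 5 fibroblast markers summed to 565 to 568 CPM in R183W WM1119, 729 to 936 in R183W vehicle, 843 to 896 in WT WM1119 and 613 to 695 in WT vehicle libraries, of which COL1A1 was the most in every library; PDGFRB was at 0.240 to 0.302, 3.46 to 7.70, 14.0 to 30.5 and 29.2 to 52.2 CPM in the same 4 groups. The part of this list in the members' values was not tested.

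The members spanned a wide range of levels. Per kilobase of the longest coding transcript (GENCODE 29), median CPM over the 11 libraries were highest for KAT6A at 19.4, then MEAF6 at 13.0, ING4 at 8.25, KAT6B at 6.12, BRPF1 at 5.57, ING5 at 5.20, BRD1 at 0.892 and BRPF3 at 0.382. Each neighbour in this order was ranked the same way in 8 to 11 of the 11 libraries. KAT6B against BRPF1, and BRPF1 against ING5, were in order in 8 libraries each, and ING4 against KAT6B in 9. The order depended on the length used: per kilobase of all annotated exons, MEAF6 came first at 7.98, KAT6A second at 7.44, and KAT6B sixth at 1.57. BRD1 and BRPF3 rested on 13 to 27 and 4 to 16 counts per library, and KAT6A on 575 to 1215.

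Treatment with WM1119 was compared with vehicle to ask what inhibiting the enzyme did to the transcripts of its own complex. Over both lines, KAT6B was the 1 member of 8 called higher, by a log2 difference of 0.61 (fold 1.52), a count near the share of all genes called. KAT6A and ING5 had positive differences that did not pass the test, and the scaffolds had intervals that spanned 0. KAT6B had 58.8 and 62.8 CPM in R183W WM1119 libraries, against 34.0, 44.5 and 37.9 CPM in R183W vehicle libraries. In the WT line it had 58.9, 60.1 and 97.4 CPM with WM1119, against 45.3, 51.1 and 48.7 CPM with vehicle. All 5 WM1119 libraries, at 58.8 to 97.4 CPM, thus lay above all 6 vehicle libraries, at 34.0 to 51.1 CPM, in both genotypes. In such bulk RNA, more transcript per cell and more cells with the transcript cannot be told apart. Of the genes tested, 2.25% were separated in this way, and KAT6B was the only one of the 8 members that was.

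The edgeR quasi-likelihood test of the inhibitor effect averaged over both lines gave KAT6B a log2 difference of 0.61 (SE 0.14, 95% interval 0.30 to 0.91, adjusted p = 0.0141). It was 1 member of 8 called higher and 0 called lower. That count is near the background, as 12.8% of all genes tested were called in either direction and 6.25% higher. At an unadjusted p under 0.05, 3 of 8 members passed (KAT6A, KAT6B and ING5), with a background of 28.3%. In all, 56 member tests were made over 7 comparisons, and this was the only one called. The call was kept in 15 of 17 alternatives and lost when either R183W WM1119 library was left out (log2 0.62, adjusted p = 0.0520 without library 1; 0.57, 0.0654 without library 2). Without WT WM1119 library 3, which held the highest KAT6B value, it was still called (log2 0.46, adjusted p = 0.00716). Of the 50-base words of the longest coding KAT6B transcript, searched on the annotated strand, 0% occurred in another gene. The largest share for any member was 0.583%. The antisense genes annotated on KAT6B had 0 counts. Exons outside that transcript and the opposite strand were not searched, and sharing of counts with other genes was not tested.

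**Figure D1:**
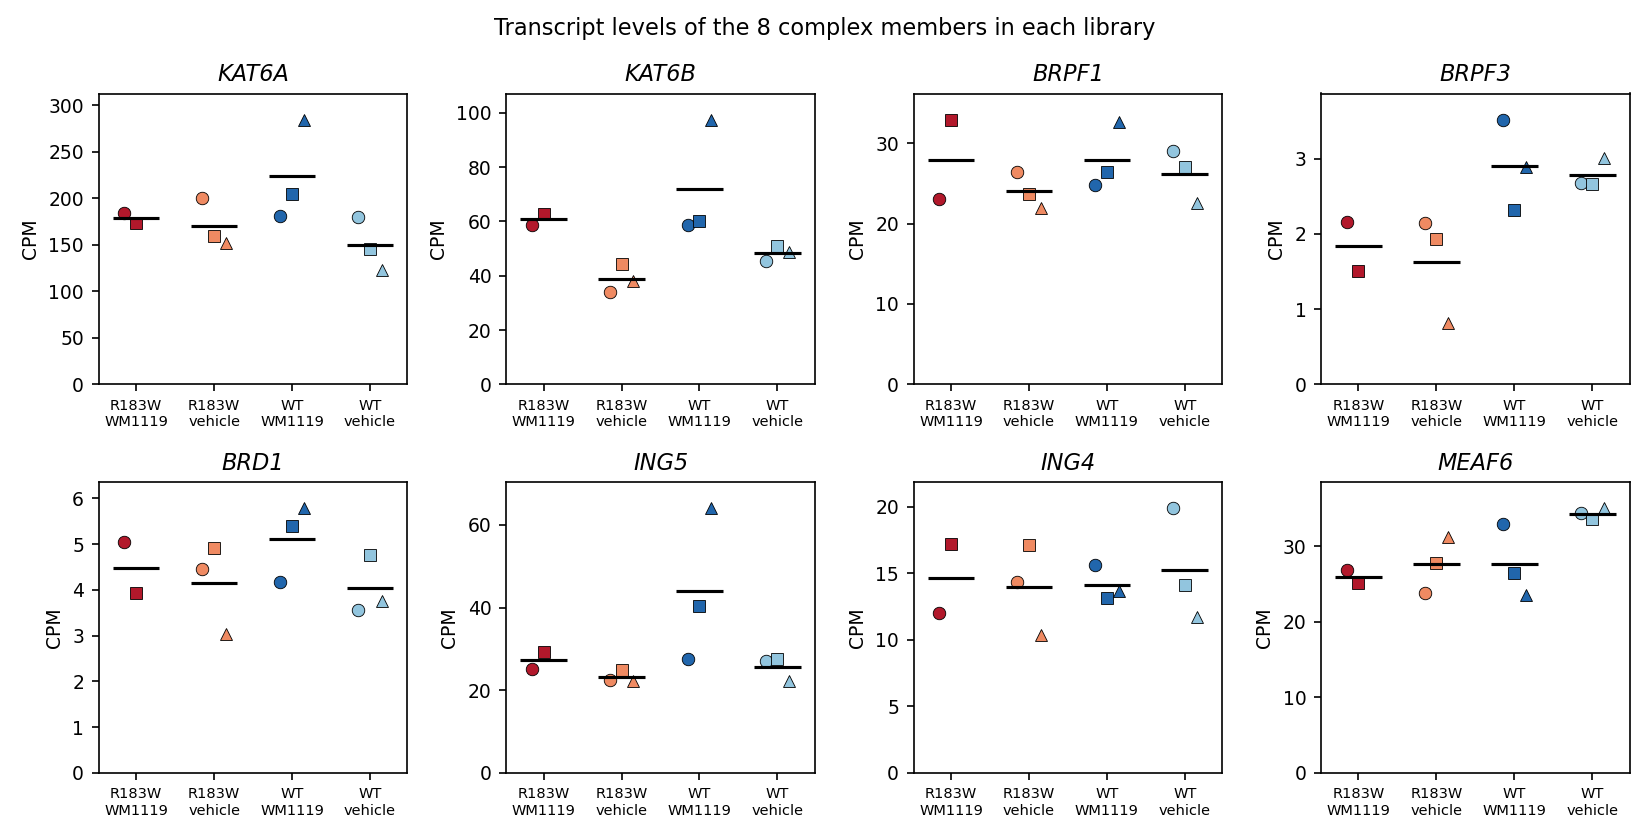
Level of each of the 8 members in CPM (y axis) by group (x axis). Points are libraries (circle, square and triangle for replicates 1, 2 and 3) and the line is the group mean; KAT6B lies at 58.8 to 97.4 CPM in the 5 WM1119 libraries, above the 34.0 to 51.1 CPM of the 6 vehicle libraries.

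In the 2 lines taken separately, the KAT6B difference was 0.65 (SE 0.21) in R183W cells and 0.56 (SE 0.19) in WT cells on the log2 scale. Neither was called by edgeR, with adjusted p = 0.106 in R183W and 0.109 in WT cells. The KAT6B interaction, which is the effect in R183W less that in WT, was 0.09 (95% interval -0.53 to 0.70, adjusted p = 0.969).

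KAT6A, the enzyme that the inhibitor is aimed at, had 184 and 174 CPM in R183W WM1119 libraries, against 200, 159 and 152 CPM in R183W vehicle libraries. In WT cells it had 181, 205 and 284 CPM with WM1119, against 180, 146 and 123 CPM with vehicle. The groups overlapped in R183W cells and did not in WT cells, although the lowest WM1119 and highest vehicle values there were 181 and 180 CPM. The log2 difference was 0.07 (SE 0.21, adjusted p = 0.895) in R183W and 0.58 (SE 0.18, adjusted p = 0.0896) in WT cells, neither called by edgeR. The interaction was -0.51 (95% interval -1.10 to 0.09, adjusted p = 0.625), so a difference between the lines was not shown. DESeq2 called the WT difference (adjusted p = 0.0476), and limma-voom did not; adjusted p ran from 0.00973 to 0.308 over 18 alternatives.

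ING5, an ING reader shared with KAT7 complexes, had 25.2 and 29.3 CPM in R183W WM1119 libraries, against 22.4, 24.8 and 22.3 CPM in R183W vehicle libraries. In WT cells it had 27.5, 40.3 and 64.0 CPM with WM1119, against 27.0, 27.4 and 22.2 CPM with vehicle. WM1119 values lay above vehicle values in both lines, narrowly, and the WT WM1119 values spread more than 2-fold among themselves. The log2 difference was 0.23 (SE 0.28, adjusted p = 0.706) in R183W and 0.76 (SE 0.25, adjusted p = 0.0960) in WT cells, and 0.49 (SE 0.19, adjusted p = 0.0997) over both; edgeR called none of them.

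WT WM1119 library 3 held the highest value of KAT6A, KAT6B and ING5 in the whole series, above the mean of the other 2 libraries of its group by a log2 of 0.56, 0.71 and 0.93. Without it, the WT differences were 0.37 for KAT6A, 0.30 for KAT6B and 0.41 for ING5 on the log2 scale, with adjusted p of 0.178, 0.282 and 0.264 by edgeR. Without WT WM1119 library 1 all 3 were called, at log2 differences of 0.71, 0.69 and 1.02. KAT6A and KAT6B transcripts, with 45.4% and 45.3% GC, belong to the second GC class from the bottom, whose median in that library was -0.10 and whose median inhibitor difference in WT cells was -0.09. ING5 is in the third class, whose medians were 0.07 and 0.04. The part of GC content and of this library in the members' values was not tested further.

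**Figure D2:**
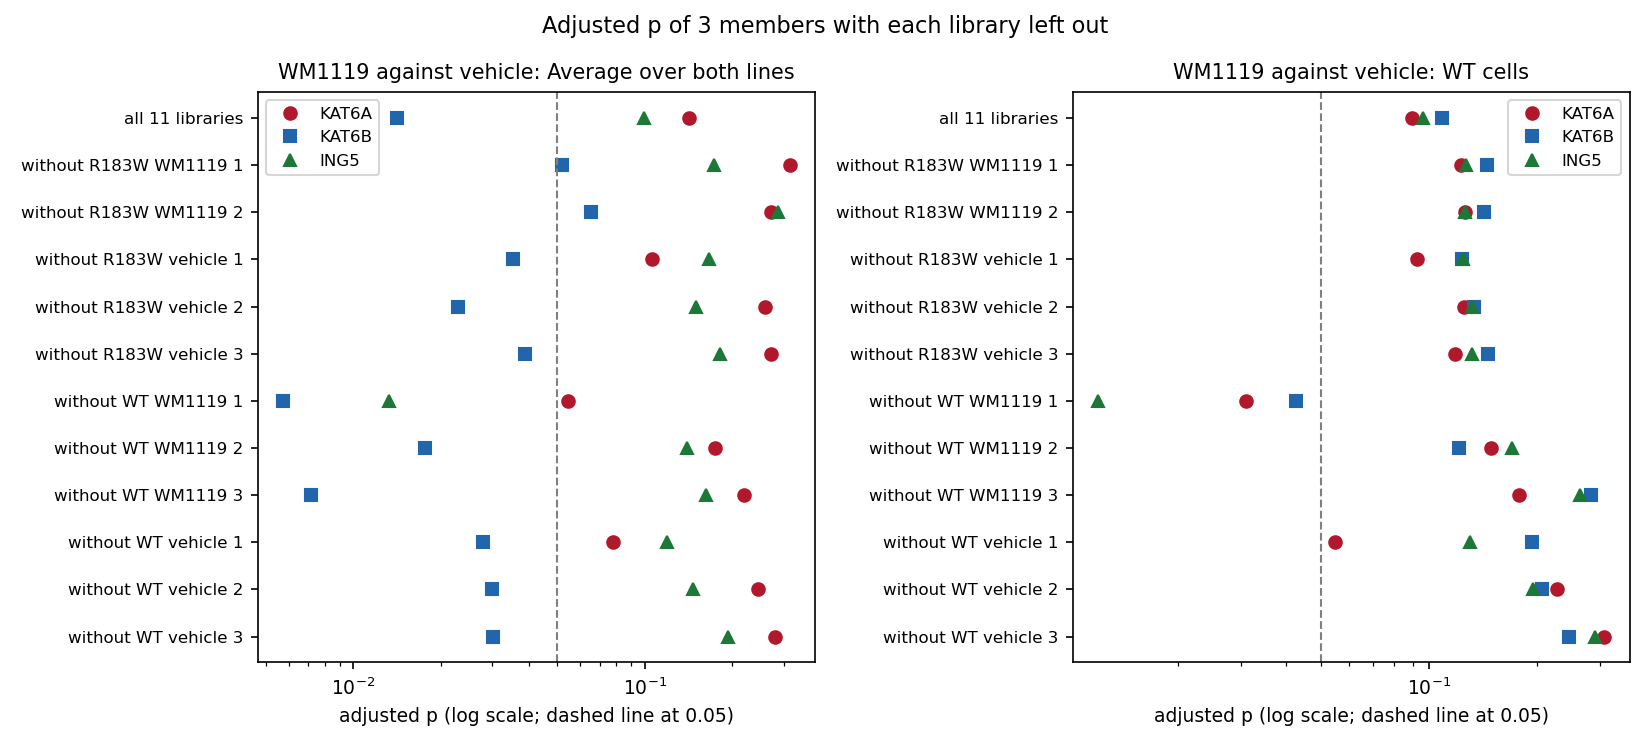
Benjamini-Hochberg adjusted p (x axis, log scale) of the WM1119 difference of KAT6A, KAT6B and ING5, with all 11 libraries and with each left out (y axis), averaged over both lines (left) and in WT cells (right). KAT6B passes 0.05 (dashed line) on the left except without either R183W WM1119 library, and on the right all 3 genes pass when WT WM1119 library 1 is left out.

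The scaffolds did not separate. BRPF1, the most abundant of the 3, had 23.0 and 32.9 CPM in R183W WM1119 libraries, against 26.4, 23.8 and 21.9 CPM in R183W vehicle libraries. In WT cells BRPF1 had 24.8, 26.5 and 32.6 CPM with WM1119, against 29.0, 27.1 and 22.6 CPM with vehicle. The averaged log2 differences were 0.15 for BRPF1 (95% interval -0.16 to 0.46), 0.22 for BRD1 (-0.35 to 0.79) and 0.12 for BRPF3 (-0.68 to 0.92). The intervals of BRD1 and BRPF3 are wide because of their low counts, so a change of the size seen for KAT6B could not be told from none. BRPF1 made up 78.1% to 87.0% of the summed scaffold level per kilobase in all 11 libraries.

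Of the remaining small subunits, MEAF6 had 26.9 and 25.1 CPM in R183W WM1119 libraries, against 23.8, 27.8 and 31.2 CPM in R183W vehicle libraries. In WT cells MEAF6 had 32.9, 26.5 and 23.5 CPM with WM1119, against 34.4, 33.5 and 35.0 CPM with vehicle. The WT groups did not overlap, with WM1119 lower, but the log2 difference of -0.30 (SE 0.17, adjusted p = 0.351 by edgeR) did not pass. ING4 averaged 14.6 ± 3.69 CPM in R183W WM1119 (n = 2) and 13.9 ± 3.41 CPM in R183W vehicle libraries (SD, n = 3). In WT cells ING4 averaged 14.1 ± 1.32 CPM with WM1119 and 15.2 ± 4.21 CPM with vehicle (SD, n = 3 each). The ING4 groups overlapped in both lines.

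Counted over the complex, in R183W cells 0 of 8 members were called by edgeR, DESeq2 or limma-voom (background 4.64% by edgeR) and 1 had an unadjusted p under 0.05 by edgeR (background 19.6%). KAT6B and ING5 did not overlap between the groups, a separation that 46.8% of all genes showed with 2 libraries against 3. In WT cells edgeR and limma-voom called 0 of 8 members and DESeq2 called 1 (background 4.86% by edgeR, 7.98% by DESeq2), and 3 had an unadjusted p under 0.05 by edgeR (background 21.3%). There 4 members did not overlap, against 22.3% of all genes. The members' median log2 difference was 0.15 in R183W and 0.20 in WT cells, beside -0.0011 and -0.0031 over all genes. The interaction called 0 of 8 members by edgeR, DESeq2 or limma-voom, with a background of 0.286%, and 0 had an unadjusted p under 0.05 by edgeR, with a background of 9.3%.

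**Figure D3:**
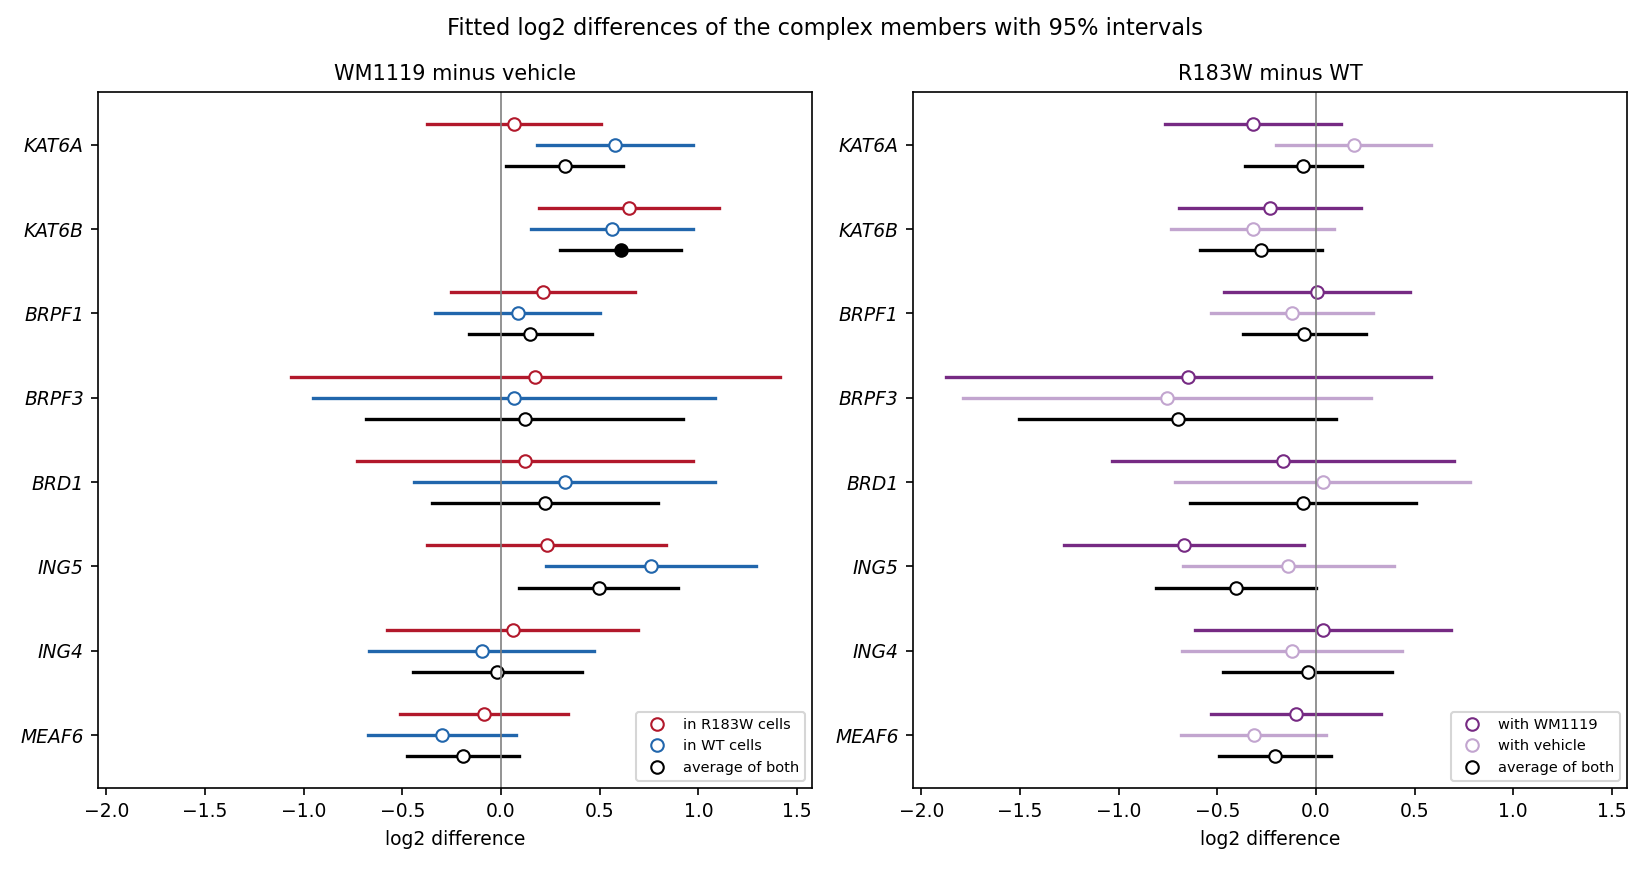
Fitted log2 differences of the 8 members (y axis) with 95% intervals, for WM1119 minus vehicle (left) and R183W minus WT (right); filled points are called at an adjusted p under 0.05. The averaged KAT6B difference of 0.61 on the left is the one filled point.

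The lines were compared to ask whether complex transcripts differ with PPP2R1A genotype. No member was called in any of the 3 genotype comparisons by edgeR, DESeq2 or limma-voom. BRPF3, a low-abundance scaffold, had the largest averaged difference. It had 2.16 and 1.51 CPM in R183W WM1119 libraries, against 3.51, 2.31 and 2.89 CPM in WT WM1119 libraries. With vehicle it had 2.14, 1.93 and 0.811 CPM in R183W cells, against 2.68, 2.67 and 3.01 CPM in WT cells. All 5 R183W libraries lay below all 6 WT libraries, as 4.31% of the genes tested did. The highest R183W value, 2.16 CPM, and the lowest WT value, 2.31 CPM, both rested on 9 counts, so the gap between them comes from scaling. The averaged log2 difference was -0.70 (SE 0.37, 95% interval -1.50 to 0.10, adjusted p = 0.201 by edgeR).

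With WM1119, 0 of 8 members were called (background 8.56%) and 1 had an unadjusted p under 0.05 by edgeR (background 23.7%): ING5, at -0.67 (SE 0.28, adjusted p = 0.171). Only BRPF3 did not overlap there, against 34.8% of all genes. With vehicle, 0 of 8 were called (background 13%) and 0 had an unadjusted p under 0.05 by edgeR (background 27.5%), with KAT6B, BRPF3 and MEAF6 lower in R183W without overlap (background 37.8% in either direction). Their log2 differences were -0.32, -0.76 and -0.32, with adjusted p of 0.300, 0.333 and 0.255 by edgeR. Averaged over both treatments, 0 were called (background 21.4%), and 0 had an unadjusted p under 0.05 by edgeR and 1 by DESeq2 (background 34.6% by edgeR). All 8 averaged differences were negative, with a median of -0.14 beside -0.01 over all genes, and each 95% interval included 0. Those of KAT6A, BRPF1, BRD1 and ING4 changed sign when single libraries were left out, and the share of all genes below 0 was not computed. By longest coding transcript, the median of all genes was -0.09 at 6 kb or more, the class of KAT6A, KAT6B and BRPF3. It was -0.05 at 4 to 6 kb (BRPF1, BRD1, ING5), 0.007 at 2 to 4 kb (MEAF6) and 0.01 under 2 kb (ING4). The part of transcript length in the members' values was not tested.

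The balance between paralogs was described per kilobase of the longest coding transcript within each library, with no test. The size of these ratios and shares, like the order of levels, depends on the length used. KAT6A exceeded KAT6B 2.66 ± 0.23-fold in R183W WM1119 (SD, n = 2) and 4.05 ± 1.12-fold in R183W vehicle libraries (SD, n = 3). In WT cells the ratio was 2.83 ± 0.23 with WM1119 and 2.81 ± 0.69 with vehicle (SD, n = 3 each). The 2 R183W WM1119 values, at 2.49 and 2.82, lay below the 3 R183W vehicle values, at 3.22 to 5.32, while the WT groups overlapped. ING5 made up 36.7% to 60.7% of the ING5 and ING4 sum in WT WM1119 libraries, against 30.9% to 39.0% in WT vehicle libraries, which overlap.

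**Figure D4:**
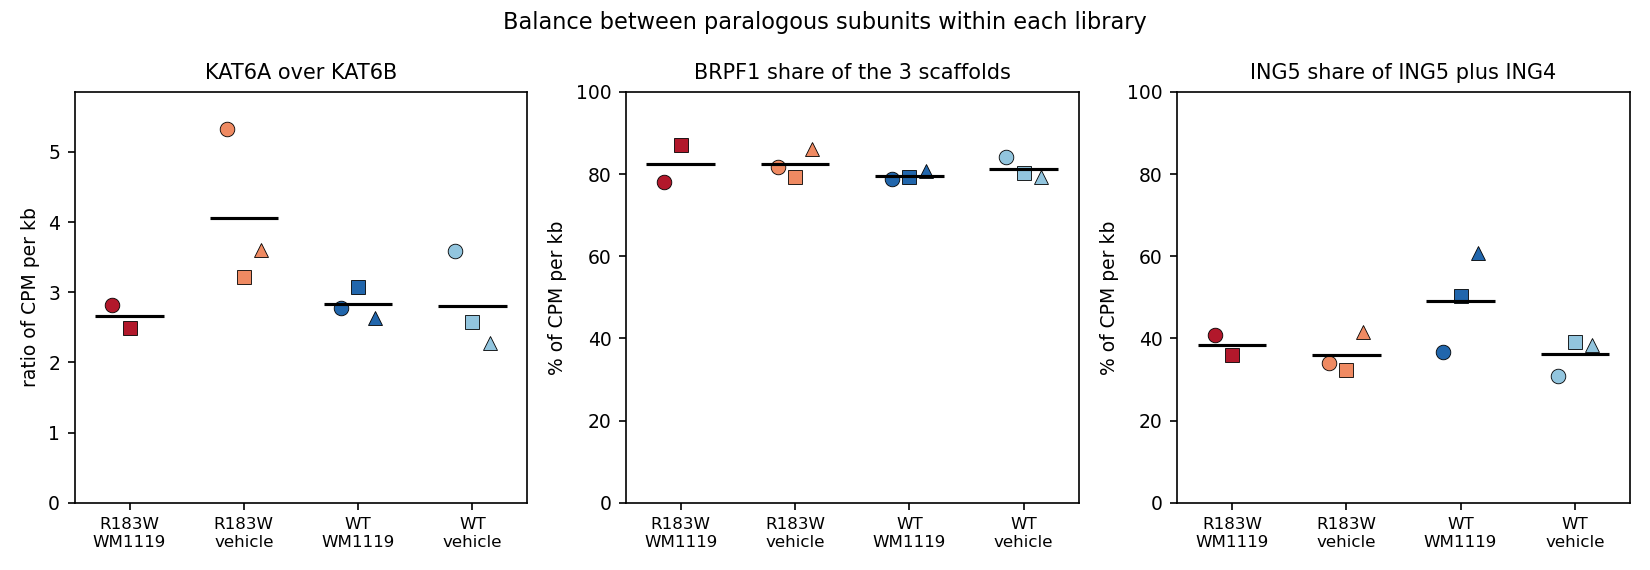
Ratio of KAT6A to KAT6B, share of BRPF1 among the 3 scaffolds and share of ING5 among ING5 and ING4, all from CPM per kilobase of the longest coding transcript (y axes), by group (x axes); points are libraries and lines are group means. For the enzyme ratio, R183W vehicle libraries lie at 3.22 to 5.32 and overlap WT vehicle libraries, at 2.27 to 3.58. R183W WM1119 libraries lie at 2.49 to 2.82 and WT WM1119 libraries at 2.63 to 3.07.

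Profiles over the 11 libraries were compared by the root mean square distance of centred log2 CPM. The comparison was with the 8515 other protein-coding genes that had a symbol and a mean of at least 10 CPM. The 5 nearest KAT6B were FAM217B, MLXIP, ATXN7, SLC6A8 and IGBP1, at 0.149 to 0.161 log2 units, against a median of 0.486 over all. ING5 was 74th nearest to KAT6B, and KAT6A was 878th. The 5 nearest KAT6A were SIVA1, ATP5ME, SHMT2, NDUFB11 and EIF3B, at 0.070 to 0.105. The libraries shared by all profiles, WT WM1119 library 3 among them, enter every distance.

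Around the complex, related MYST enzymes and subunits, partners of KAT6A, and genes reported to need KAT6A or KAT6B in other cells were examined in the same fit. These lists were chosen with earlier results of these data known, so their counts beside all genes are a description only. Of 10 partners, TRIM24, a bromodomain reader reported to act with KAT6A, was called higher in both lines. CREBBP, an acetyltransferase fused to KAT6A in some leukaemias, was called higher in R183W cells. The share of all genes called was 4.64% in R183W and 4.86% in WT cells. TRIM24 averaged 103.7 ± 2.30 CPM in R183W WM1119 (n = 2) and 68.1 ± 1.69 CPM in R183W vehicle libraries, and 79.1 ± 7.84 CPM in WT WM1119 and 57.0 ± 3.25 CPM in WT vehicle libraries (SD, n = 3 each). Its log2 difference was 0.61 (SE 0.14, adjusted p = 0.0230) in R183W and 0.48 (SE 0.13, adjusted p = 0.0449) in WT cells by edgeR. The CREBBP difference was 0.68 (SE 0.15, adjusted p = 0.0229) in R183W and 0.30 (SE 0.14, adjusted p = 0.231) in WT cells by edgeR. The CREBBP interaction of 0.38 was not called (adjusted p = 0.634 by edgeR). Averaged over both lines, 3 of 10 partners rose, TRIM24 (0.54), MEN1 (0.54) and CREBBP (0.49), and 0 fell (background 12.8% called, 6.25% higher), with a median of 0.14 beside -0.0057 over all genes. The averaged calls of TRIM24 and CREBBP held in all 17 alternatives, and that of MEN1, a component of KMT2A complexes, was lost in 8. The single-line calls were less firm: TRIM24 lost that in R183W cells in 7 of 18 and that in WT cells in 13 of 18 alternatives, and CREBBP lost its R183W call in 5 of 18.

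Of the 9 related MYST genes, 1 rose and 0 fell in the average, near the background of 12.8% called, with a median of 0.064: JADE2, a scaffold of KAT7 complexes (log2 0.52, SE 0.12, adjusted p = 0.0125 by edgeR). Its call was lost without either R183W WM1119 library. KAT8, the MYST enzyme for histone H4 lysine 16, was higher in R183W WM1119 at 38.6 ± 4.15 CPM (n = 2) than in WT WM1119 libraries at 17.6 ± 1.02 CPM (SD, n = 3), a log2 difference of 1.13 (SE 0.25, adjusted p = 0.0117 by edgeR). That call was lost without either R183W WM1119 library, and the averaged genotype difference of 0.68 was lost without R183W WM1119 library 1. Averaged over treatments, 4 of 10 partners were lower in R183W: RUNX2 (-1.03), NCOA2 (-0.71), EP300 (-0.57) and KMT2A (-0.40), and TRIM24 was higher (0.32), where 21.4% of all genes were called. The EP300 and KMT2A calls held in 17 of 17 alternatives, NCOA2 lost its call without R183W WM1119 library 2, and RUNX2 lost its call in 12 and TRIM24 in 7.

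Of the 17 reported dependent genes, 13 were tested. CDC6, a replication licensing factor, and EZH2, the methyltransferase of the Polycomb complex, fell in R183W cells with WM1119, while CDC6 and E2F2, an activator of cell cycle genes, rose in WT cells. CDC6 averaged 24.9 ± 6.56 CPM in R183W WM1119 (n = 2) and 48.6 ± 5.71 CPM in R183W vehicle libraries, and 40.1 ± 1.88 CPM in WT WM1119 and 22.5 ± 4.03 CPM in WT vehicle libraries (SD, n = 3 each). Its log2 difference was -0.96 (SE 0.22) in R183W and 0.84 (SE 0.19) in WT cells, calls lost in 5 and 4 of 18 alternatives, the replicate block among them. The interaction was -1.79 (SE 0.29, adjusted p = 0.0230 by edgeR), a call lost in 8 of 17 alternatives. With vehicle, 3 of the 13 genes were called higher in R183W than in WT cells and 0 lower, where 13% of all genes were called. They were CDC6 (log2 1.11, SE 0.19, adjusted p = 0.00164 by edgeR), E2F2 (1.00) and EZH2 (0.49). Those calls were lost in 0 of 18 alternatives for CDC6, 3 for E2F2 and 6 for EZH2. EZH2 in R183W cells changed by -0.76 (SE 0.16, adjusted p = 0.0153), a call lost in 4 of 18 alternatives, and E2F2 in WT cells by 0.96 (SE 0.24, adjusted p = 0.0391), lost in 12 of 18. CCND1, cyclin D1, was the 1 gene of the 13 called in the average, where 12.8% of all genes were called. It fell by 0.44 on the log2 scale (adjusted p = 0.0363 by edgeR), a call lost in 8 of 17 alternatives. Of these 13 genes, 0 rose and 2 fell in R183W and 2 rose and 0 fell in WT cells (background 4.64% called in R183W and 4.86% in WT cells), with medians of -0.45 and 0.03.

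**Figure D5:**
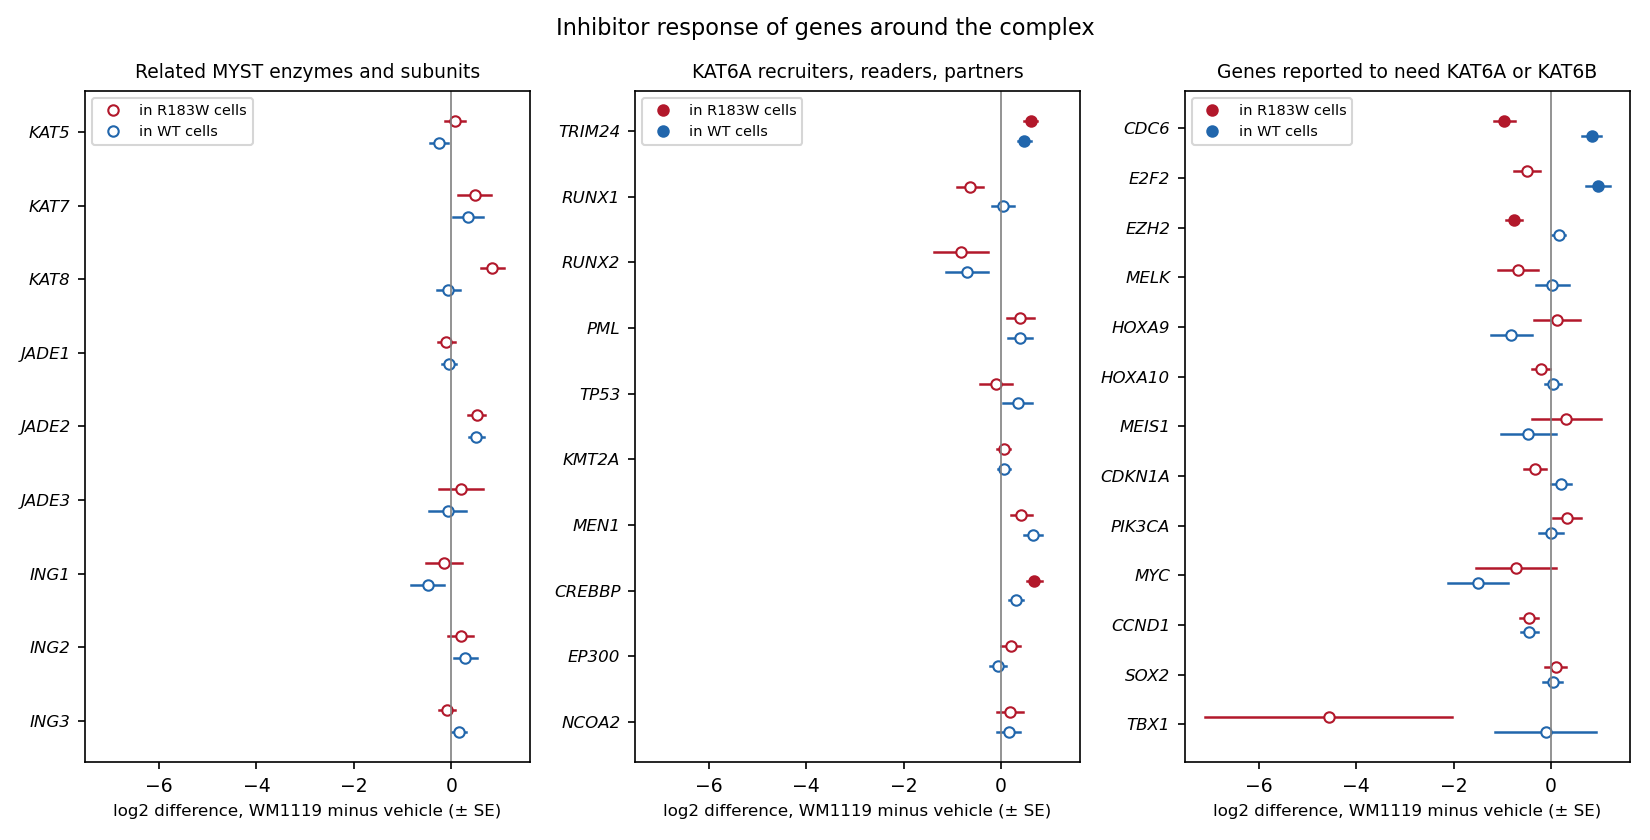
Log2 difference (x axis, ± SE) of WM1119 minus vehicle in R183W and WT cells for genes of the 3 lists (y axes); filled points are called at an adjusted p under 0.05. TRIM24 is filled in both lines at 0.61 and 0.48, and CDC6 is filled on opposite sides of 0 at -0.96 and 0.84.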

How the data were processed

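Transcripts were measured by RNA-seq in 11 libraries of HEC50B cells. The deposited values are expected counts per gene, an estimated count that the authors made from the reads; all values were whole numbers as deposited, and rounding changed none. STAR, RSEM and the hg19 build are named in the submitters' processing notes, without versions. Per the labels' protocols, the kit was ScriptSeq Complete Gold, and the molecule is labelled as polyA RNA. Estimated counts can share reads that match several genes. At most 0.583% of the 50-base words of any member's longest coding transcript occurred in another gene on the annotated strand. Exons outside that transcript and the opposite strand were not searched.

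Gene symbols and lengths came from GENCODE 29, which matched 52301 of 57736 gene IDs; unmatched IDs held 0.89% of the counts. Genes were kept by filterByExpr (13980), scaled by TMM and tested by two-sided quasi-likelihood F tests in edgeR 4.0.16 (R 4.3.3) in 1 fit of 4 group means. P-values were adjusted by Benjamini-Hochberg over all genes tested, and a gene was called under 0.05. The 7 comparisons were WM1119 against vehicle and R183W against WT, each in both settings and averaged, and the interaction. The fit was also run on simulated counts with the same spread for all genes and libraries and no outlying library. That run cannot show how the fit behaves with an outlying library such as the one in these data. DESeq2 1.42.0, limma-voom 3.58.1, other scalings and filters, a replicate block and leaving out each library were alternatives.

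With 3 counts as the floor, a gene at 0 could still have 1.15 CPM in the shallowest and 0.495 CPM in the deepest library, by counting error alone. The members, the gene lists (all listed members of a list, naming those called, largest first), the comparisons and the tests were chosen with earlier results of these data known. Checks of GC content, promoter motifs, pooled ranges, shared sequence, level order and single libraries were added after the values had been seen.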

Additional observations from a re-analysis of the deposited data

Results flagged for a closer look

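Among the complex members, none moved in opposite directions in the 2 lines without overlap, and none had a called interaction. Of the listed genes, 5 were picked out because the response to WM1119, or the genotype difference, pointed opposite ways or had a called interaction. Of all genes tested, 46.8% did not overlap between WM1119 and vehicle in R183W cells and 22.3% in WT cells. Between the lines, 37.8% did not overlap with vehicle and 34.8% with WM1119. A called interaction was found for 0.286%. The share of all genes lying apart in opposite directions was not computed. The interaction, which is the log2 effect in R183W less that in WT cells, was called by edgeR for CDC6 at -1.79 (SE 0.29, adjusted p = 0.0230) and for COL1A1, a collagen gene in the fibroblast list, at -1.02 (SE 0.17, adjusted p = 0.0252). The CDC6 call was lost in 8 and the COL1A1 call in 9 of 17 alternatives, the replicate block among them. The others had libraries of the compared groups that lay apart in opposite directions, with an interaction that was not called by edgeR. These were E2F2 at -1.46 (adjusted p = 0.151), EZH2 at -0.92 (adjusted p = 0.120) and FOXA2, an endometrial gland factor, at -0.63 (adjusted p = 0.346). Groups of 2 or 3 libraries were not tested for a single outlying sample.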

How the results depend on the processing

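Over the 56 member results, 976 values were computed under alternatives: 903 kept their direction and side of the threshold, 59 changed sign, 12 newly passed and 2 no longer passed. The values that changed sign were uncalled, at adjusted p of 0.702 or more. The 2 that no longer passed were the averaged KAT6B difference without either R183W WM1119 library, where it was 0.62 and 0.57 (log2), so the one member call rests on having both. The causes of these changes were not tested. Low counts limit BRPF3 and BRD1, and 2 libraries limit the R183W WM1119 group.

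Leaving out 1 library moved the number of genes called to 118 to 1600 for WM1119 in R183W cells, 247 to 1392 for WM1119 in WT cells, 965 to 3151 for genotype with vehicle, 386 to 2895 for genotype with WM1119, 0 to 192 for the interaction, 728 to 2594 for the averaged inhibitor effect and 1799 to 4819 for the averaged genotype effect. Members called then ranged from 0 to 1 for WM1119 in R183W cells, 0 to 3 for WM1119 in WT cells, 0 to 0 for genotype with vehicle, 0 to 1 for genotype with WM1119, 0 to 0 for the interaction, 0 to 2 for the averaged inhibitor effect and 0 to 1 for the averaged genotype effect. Members newly called were KAT6A, KAT6B and ING5 in WT cells without WT WM1119 library 1, ING5 in the averaged effects and in the genotype comparison with WM1119 without that library, and KAT6B in R183W cells without WT WM1119 library 3.

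With no filter on low counts, 23410 genes were tested, against 13980 with the filter. The genes called were 1110 (4.74%) in R183W cells, 1287 (5.5%) in WT cells and 191 (0.816%) for the interaction. With the filter they were 649 (4.64%), 680 (4.86%) and 40 (0.286%). Without the filter, 2 members were called in WT cells (KAT6A, ING5) and 2 in the average (KAT6B, ING5). In that average 10.4% of all genes were called. DESeq2 called 975 (6.97%) in R183W cells, 1115 (7.98%) in WT cells and 169 (1.21%) for the interaction, with 1 member in WT cells (KAT6A). With the libraries of the groups compared alone, 2406 genes (18.2%) were called in R183W cells with 1 member (KAT6B), and 139 (1.09%) in WT cells. For genotype, 2929 (22.4%) were called with vehicle and 319 (2.49%) with WM1119, against 1817 (13%) and 1197 (8.56%) in the full fit.

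Of 15 correlations between the deviations of same-numbered libraries from their group means, from -0.391 to 0.137, 2 were above 0.1. Of 30 between differently numbered libraries, from -0.163 to 0.405, 5 were. Deviations within groups of 2 or 3 libraries are tied to each other, so these values cannot show whether replicates were paired. With the replicate number as a block, the genes called were 261 in R183W cells, 287 in WT cells, 1189 for genotype with vehicle, 678 with WM1119, 0 for the interaction and 1092 in the averaged inhibitor effect. Under the block, the averaged KAT6B difference was 0.64 (adjusted p = 0.0229 by edgeR), ING4 in R183W cells was -0.055, and, for genotype with WM1119, BRPF1 was -0.020 and ING4 -0.088. Other sign changes were BRPF1 for genotype with WM1119 at -0.0078 with no filter and -0.0030 by limma-voom, ING4 there at -0.0053 by limma-voom, and ING4 in the averaged inhibitor effect at 0.0054 by limma-voom.

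Leaving out 1 library in turn changed the sign of these uncalled log2 differences. For WM1119 against vehicle in R183W cells, KAT6A ran from -0.0099 to 0.18, BRPF1 from -0.071 to 0.43, BRPF3 from -0.14 to 0.41, BRD1 from -0.10 to 0.27, ING4 from -0.22 to 0.29 and MEAF6 from -0.21 to 0.013. In WT cells, BRPF1 ran from -0.029 to 0.16, BRPF3 from -0.12 to 0.20 and ING4 from -0.26 to 0.12. For R183W against WT with vehicle, BRD1 ran from -0.10 to 0.21 and ING4 from -0.29 to 0.12. With WM1119, KAT6B ran from -0.36 to 0.015, BRPF1 from -0.27 to 0.23, ING4 from -0.24 to 0.27 and MEAF6 from -0.21 to 0.050. For the interaction, KAT6B ran from -0.039 to 0.33, BRPF1 from -0.15 to 0.35, BRPF3 from -0.20 to 0.36 and ING4 from -0.12 to 0.38. For the averaged inhibitor effect, BRPF3 ran from -0.036 to 0.23 and ING4 from -0.16 to 0.094. For the averaged genotype effect, KAT6A ran from -0.13 to 0.039, BRPF1 from -0.19 to 0.058, BRD1 from -0.17 to 0.023 and ING4 from -0.18 to 0.078.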
